A study of Mus musculus with 8 samples.

Results

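Known suppressor and Polycomb genes of T cell acute lymphoblastic leukemia (T-ALL), 7 in number, were examined in 2 mouse leukemia lines to ask whether either line had lost the expression of any of them. The genes were Fbxw7, Phf6, Ezh2, Suz12, Eed, Cnot3 and Ptpn2. Their members on the array were all probe sets whose annotated gene symbol is one of these names, which gave 20 probe sets among 45037, for 7 of the 18193 genes that have a probe set with 1 symbol. The rule goes by name and reads no measured value. All 20 probe sets entered the tests, with no filter on low values.

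T-ALL arises from immature T cells that gain growth signals, often through NOTCH1, and lose brakes on growth. Polycomb repressive complex 2 (PRC2) silences genes by methylating a histone tail, with EZH2 as the catalytic subunit and SUZ12 and EED as the core subunits that hold it active. FBXW7 is the receptor through which an SCF ubiquitin ligase marks NOTCH1, MYC and cyclin E for destruction. PHF6 is an X-linked chromatin protein, CNOT3 is a subunit of the CCR4-NOT complex that shortens the tails of messenger RNAs, and PTPN2 is a phosphatase that switches off JAK and STAT proteins. Loss-of-function mutations or deletions of these genes are known from human T-ALL, and a mutation that leaves the transcript intact would not show in an expression array.

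Both lines came from mice of the FVB/NJ strain that lacked E2a, the gene for the transcription factors E12 and E47, so that the controls carried this deletion too. The E2a-/- line had unmodified Lef1, and the Lef1F/F line was also homozygous for a Lef1 allele whose DNA binding domain is flanked by loxP sites. LEF1 is a DNA binding protein of Wnt signaling and T cell development. Cells of each line were transduced with the GFP retrovirus MigR1 or with its derivative MigR1-Cre, from which Cre recombinase is made too, and GFP+ cells were profiled after 72 h on 2 arrays for each of the 4 groups. With 1 line per genotype, genotype and line cannot be told apart. No label says that the 2 arrays of a group were grown apart, so the tests see a spread between arrays that may be technical, and precision is limited by how few arrays there are.

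In the Lef1F/F line, the targeted gene matched the array titles. The brighter Lef1 probe set lay at 6918 and 6126 intensity units in the Lef1F/F MigR1 arrays and at 1903 and 1678 in the Lef1F/F MigR1-Cre arrays (log2 difference -1.87 ± 0.09, SE, limma adjusted p = 0.000703). Whether its probes lie in the deleted part was not examined. In the E2a-/- line this probe set lay at 3288 and 3337 units with MigR1 and at 3008 and 3416 with MigR1-Cre. With Lef1 unmodified there, it cannot check the vector of those arrays, which rests on the labels. Between the lines, it was higher in the Lef1F/F MigR1 arrays (log2 difference 0.97 ± 0.09, limma adjusted p = 0.000368). Over both vectors its line difference was 0.07 ± 0.07, since the Lef1F/F arrays then join high and low Lef1. T cell markers were high, with a median of 2112 units over 11 measured genes, and a mean of 9083 for Cd3d, although Cd5 was dim at 75.9. B cell and myeloid markers had medians of 69.9 and 68.5, below the median of all probe sets on each array (88.9 to 91.0). The Lef1F/F arrays stood apart within their own groups. Array 1 of MigR1 and array 1 of MigR1-Cre correlated at 0.9975 over all probe sets, as did both arrays 2, whereas the arrays with the same vector correlated at 0.9945 and 0.9943. The order of the arrays is that of the records, and no label says whether it marks a shared culture or day.

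The sequences upstream of 4 of the genes are printed because LEF1 is the perturbed factor, and because the PRC2 core genes encode 1 complex. Of the 7 genes, 5 had an entry in the RefSeq promoter table of build GRCm38.p6. The 250 bases before each annotated start were searched on both strands for the TCF/LEF motif CTTTGAA or CTTTGAT and for the E box CAGCTG or CACCTG, a binding motif of E proteins. Neither motif overlaps the other in its letters. Capitals mark the TCF/LEF match.
Suz12, chr11:79992856-79993105, plus strand: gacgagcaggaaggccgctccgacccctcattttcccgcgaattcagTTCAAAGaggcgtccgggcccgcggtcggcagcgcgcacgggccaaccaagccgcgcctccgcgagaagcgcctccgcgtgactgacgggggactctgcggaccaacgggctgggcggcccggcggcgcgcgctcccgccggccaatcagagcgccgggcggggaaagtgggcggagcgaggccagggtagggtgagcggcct
Ezh2, chr6:47595031-47595280, minus strand: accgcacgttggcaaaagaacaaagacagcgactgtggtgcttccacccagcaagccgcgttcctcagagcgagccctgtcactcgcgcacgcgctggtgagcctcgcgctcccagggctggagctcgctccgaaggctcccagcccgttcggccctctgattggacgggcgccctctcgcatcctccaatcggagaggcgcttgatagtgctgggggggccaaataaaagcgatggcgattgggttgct
Eed, chr7:89980977-89981226, minus strand: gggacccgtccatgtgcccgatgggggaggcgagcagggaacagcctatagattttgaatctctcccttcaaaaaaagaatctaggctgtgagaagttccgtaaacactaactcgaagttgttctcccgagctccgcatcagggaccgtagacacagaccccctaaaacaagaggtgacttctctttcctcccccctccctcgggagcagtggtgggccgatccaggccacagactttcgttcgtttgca
Fbxw7, chr3:84815327-84815576, plus strand: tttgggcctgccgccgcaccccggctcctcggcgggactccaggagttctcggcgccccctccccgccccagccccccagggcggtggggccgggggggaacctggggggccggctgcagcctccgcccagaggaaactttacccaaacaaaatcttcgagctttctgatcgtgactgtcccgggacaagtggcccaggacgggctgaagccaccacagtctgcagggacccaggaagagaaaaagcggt
Among the entries of these 5 genes, the TCF/LEF motif was found only upstream of Suz12, 203 to 197 bases before the start. It was found in 7.48% of 32851 such windows of all genes. The E box was found upstream of none of the 5, against 27.7% of all windows. CG pairs numbered 37 upstream of Suz12, 23 of Ezh2, 22 of Cnot3, 12 of Eed, and 17, 1 and 6 of the 3 Fbxw7 starts (the first of which is printed), against a median of 6 over all windows. These are letter matches and were not tested as sites.

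All 7 genes were well expressed in both lines. The brightest probe set of each lay at or above the 83.9th percentile of all probe sets by its mean over the 8 arrays. The most intense was that of Ezh2, between 3966 and 4219 units in the E2a-/- arrays and between 4383 and 4675 in the Lef1F/F arrays. The probe sets of Suz12, Ptpn2 and Eed followed, and those of Fbxw7, Phf6 and Cnot3 were dimmer. Probe sets differ in how strongly they bind, so this order describes the probe sets and does not rank transcripts. By its brightest probe set, no gene was at the floor of the array in any group.

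**Figure D1:**
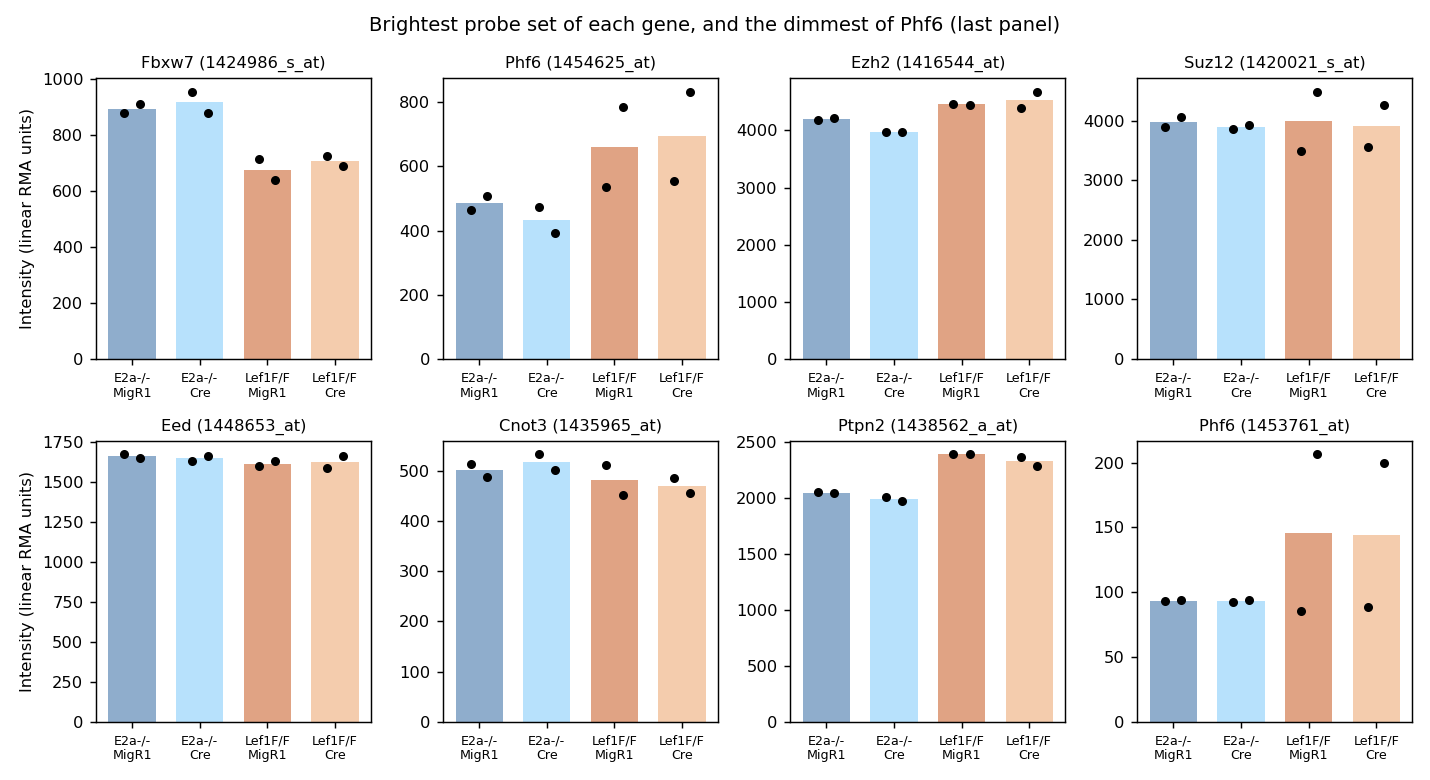
Intensity on a linear scale of the brightest probe set of each of the 7 genes and, in the last panel, of the dimmest Phf6 probe set. Points are arrays (array 1 on the left), bars are means of 2 arrays. Fbxw7 sat between 636.9 and 722.6 units in the Lef1F/F arrays and between 876.9 and 953.0 in the E2a-/- arrays, while arrays 2 of the Lef1F/F line stood above arrays 1 for Phf6 and Suz12.

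At 72 h after transduction of the Lef1F/F line, MigR1-Cre was not accompanied by a detectable change in any of the 7 genes. For the PRC2 core, Ezh2 lay at 4459 and 4449 units with MigR1 and at 4383 and 4675 with MigR1-Cre in the Lef1F/F line, a log2 difference of 0.02 ± 0.06. Eed lay at 1601 and 1634 units with MigR1 and at 1588 and 1664 with MigR1-Cre, a log2 difference of 0.01 ± 0.06. In both genes the arrays of the vectors overlapped, and the 95% interval of the log2 difference was -0.11 to 0.16 for Ezh2 and -0.12 to 0.14 for Eed. Suz12 was less well determined. Its brightest probe set lay at 3495 and 4487 units with MigR1 and at 3567 and 4260 with MigR1-Cre, with an interval of the log2 difference from -0.31 to 0.26.

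Outside PRC2, Fbxw7 lay at 714.5 and 636.9 units with MigR1 and at 722.6 and 690.1 with MigR1-Cre, a log2 difference of 0.07 ± 0.08 with an interval from -0.11 to 0.24. Ptpn2 lay at 2387 in both MigR1 arrays and at 2368 and 2285 with MigR1-Cre, with an interval from -0.17 to 0.09. Cnot3 lay at 510.3 and 452.2 units with MigR1 and at 484.4 and 455.2 with MigR1-Cre, with an interval from -0.21 to 0.15. The widest interval among the brightest probe sets was that of Phf6, from -0.44 to 0.58, since its 2 arrays of each group lay far apart. Of the 20 probe sets, 0 passed an adjusted p of 0.05 in limma, and 0 had an unadjusted p under 0.05. Over all probe sets 0.167% passed, so that a count of 0 among 20 is near that background. The log2 differences of the 20 ran from -0.07 to 0.18, with a median size of 0.05, which was also the median size over all probe sets.

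In the E2a-/- line, which has no loxP sites at Lef1, Cre gave the same count. There 0 of the 20 probe sets were called in limma, with 0 at an unadjusted p under 0.05, against 0.0% of all probe sets. Log2 differences ran from -0.17 for the brightest Phf6 probe set to 0.19 for the dimmer of Cnot3. Phf6 lay at 463.5 and 508.3 units with MigR1 and at 474.4 and 393.2 with MigR1-Cre, so the vectors overlapped. The difference between the Cre effects of the lines was called for 0 of 20 probe sets, again with 0 at an unadjusted p under 0.05, against 0.02% of all. Both Cre comparisons gave 0 member calls in every alternative fit that was run.

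**Figure D2:**
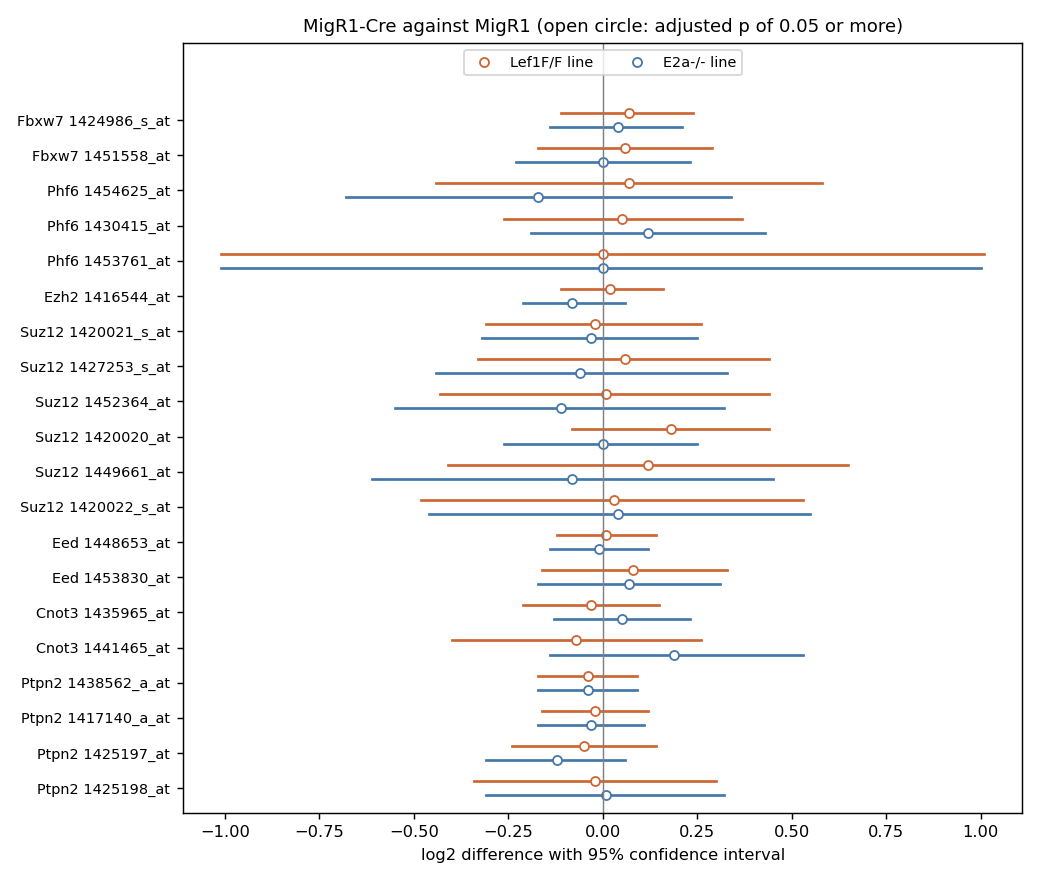
The log2 difference of MigR1-Cre against MigR1 for each of the 20 probe sets, with its 95% confidence interval, in the Lef1F/F line and the E2a-/- line. All circles are open, meaning an adjusted p of 0.05 or more, and the Phf6 and Suz12 intervals are among the widest because the arrays of a group differed in those probe sets.

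Between the lines, differences were present but modest, and among the 7 genes only Fbxw7 was called lower in the Lef1F/F line by its brightest probe set. That probe set, 1424986_s_at, lay at 876.9, 908.6, 953.0 and 878.2 units in the E2a-/- arrays and at 714.5, 636.9, 722.6 and 690.1 in the Lef1F/F arrays. The lines did not overlap. Over both vectors the log2 difference was -0.39 ± 0.05 (limma adjusted p = 0.00146, 4 arrays per line), which is 23.6% less signal, with an interval of the ratio from 0.7 to 0.833. Here and below, the tests over both vectors count the 4 arrays of a line as separate. Lef1F/F arrays of the same order resembled each other across vectors, however. If they are not independent, these standard errors, intervals and p-values are too small. In the MigR1 arrays alone it was -0.40 ± 0.08 (limma adjusted p = 0.0123), a call that was lost without either E2a-/- MigR1 array or without Lef1F/F MigR1 array 2 (adjusted p up to 0.104). The other Fbxw7 probe set, 1451558_at, ran from 585.2 to 658.4 units in the E2a-/- line and from 519.4 to 624.3 in the Lef1F/F line. These ranges overlapped, and its log2 difference of -0.12 ± 0.07 did not pass (limma adjusted p = 0.308). The call thus rests on 1 of the 2 probe sets. The brighter probe set stayed at 636.9 units or more in every array, so its signal was lower but not absent. In sorted but bulk samples, fewer cells with the transcript and less transcript per cell cannot be told apart.

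Ptpn2 differed the other way. Its brightest probe set lay at 2048, 2043, 2008 and 1971 units in the E2a-/- arrays and at 2387, 2387, 2368 and 2285 in the Lef1F/F arrays, without overlap. The log2 difference over both vectors was 0.22 ± 0.04 (limma adjusted p = 0.00467), and in the MigR1 arrays it was 0.22 ± 0.06 (limma adjusted p = 0.0397). A further bright probe set of Ptpn2, 1417140_a_at, ran from 1686 to 1813 units in the E2a-/- line and from 1902 to 1959 in the Lef1F/F line, which is 0.15 ± 0.04 on the log2 scale (limma adjusted p = 0.0470). This call was lost when any of 8 arrays was left out (adjusted p up to 0.163), and that of the brightest probe set in the MigR1 arrays when any of 6 was, other than the Lef1F/F MigR1-Cre arrays (up to 0.183). The remaining pair of Ptpn2 probe sets was dim, between 62.9 and 122.0 units over all arrays, and neither was called.

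Phf6 gave probe sets with differences of opposite sign. Its brightest, 1454625_at, lay at 463.5, 508.3, 474.4 and 393.2 units in the E2a-/- arrays and at 535.7, 783.9, 554.5 and 832.8 in the Lef1F/F arrays, with no overlap. Over both vectors its log2 difference was 0.54 ± 0.16 (limma adjusted p = 0.0457). Another, 1430415_at, had the opposite sign, with 323.9 to 398.2 units in the E2a-/- line against 268.5 to 342.1 in the Lef1F/F line, and a log2 difference of -0.29 ± 0.10 that did not pass (limma adjusted p = 0.0713). The call of 1454625_at was lost without any 1 of the E2a-/- arrays or of the Lef1F/F arrays 2 (adjusted p up to 0.168). The third, 1453761_at, had a log2 difference of 0.51 ± 0.31 that did not pass (limma adjusted p = 0.333). The 3 probe sets thus did not share 1 direction. Phf6 lies on the X chromosome, and Xist, the RNA that coats a silenced X, lay between 76.5 and 88.0 units in all 8 arrays.

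Cnot3 was called by its dimmer probe set only. That probe set, 1441465_at, lay at 261.0, 223.4, 249.6 and 305.9 units in the E2a-/- arrays and at 219.2, 186.4, 213.9 and 173.0 in the Lef1F/F arrays, with a log2 difference of -0.39 ± 0.10 (limma, adjusted p = 0.0290). All Lef1F/F arrays were below all E2a-/- arrays, but the call was lost without E2a-/- MigR1 array 1, without E2a-/- MigR1-Cre array 2 or without either Lef1F/F array 2 (adjusted p up to 0.125). The brighter probe set, 1435965_at, ran from 487.4 to 532.1 units in the E2a-/- line and from 452.2 to 510.3 in the Lef1F/F line, and did not pass (log2 difference -0.10 ± 0.06, limma adjusted p = 0.296).

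The PRC2 core gave no call. Ezh2, at 4173, 4219, 3966 and 3976 units in the E2a-/- arrays and 4459, 4449, 4383 and 4675 in the Lef1F/F arrays, was higher in every Lef1F/F array, yet its log2 difference of 0.14 ± 0.04 missed the threshold (limma adjusted p = 0.0504). Eed lay between 1632 and 1674 units in the E2a-/- line and between 1588 and 1664 in the Lef1F/F line, and its log2 difference of -0.03 ± 0.04 had an interval from -0.12 to 0.06. The dimmer Eed probe set stayed between 54.5 and 67.9 units. For the 6 Suz12 probe sets the log2 differences lay between -0.07 and 0.19, and none passed.

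In all, 5 of the 20 probe sets, or 25.0%, were called between the lines over both vectors, against 20.5% of all probe sets. Of these, 2 were lower in the Lef1F/F line, where 10.8% of all probe sets were, and 3 were higher, where 9.71% of all were. In the MigR1 arrays alone 2 of 20 were called, or 10.0%, against 10.7% of all. These shares are near the background. The comparisons share the MigR1 arrays. The median size of the log2 difference over both vectors was 0.11 for the 20 probe sets and 0.07 for all. The summed intensity over 18 markers of dividing cells was 66341 to 69252 units in the E2a-/- arrays and 70829 to 72960 in the Lef1F/F arrays. By the brightest probe set of each gene, 5 of the 18 were called higher in the Lef1F/F line, 2 were called lower (E2f1 at -0.65 and Mcm3 at -0.28 on the log2 scale) and 11 were not called, where 25.0% of all genes were called. The sum over 11 T cell markers was 34135 to 35092 units in the E2a-/- arrays and 34873 to 44014 in the Lef1F/F arrays, with 5 called higher, 1 lower and 5 not called. Their part in the differences of the 7 genes was not tested.

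**Figure D3:**
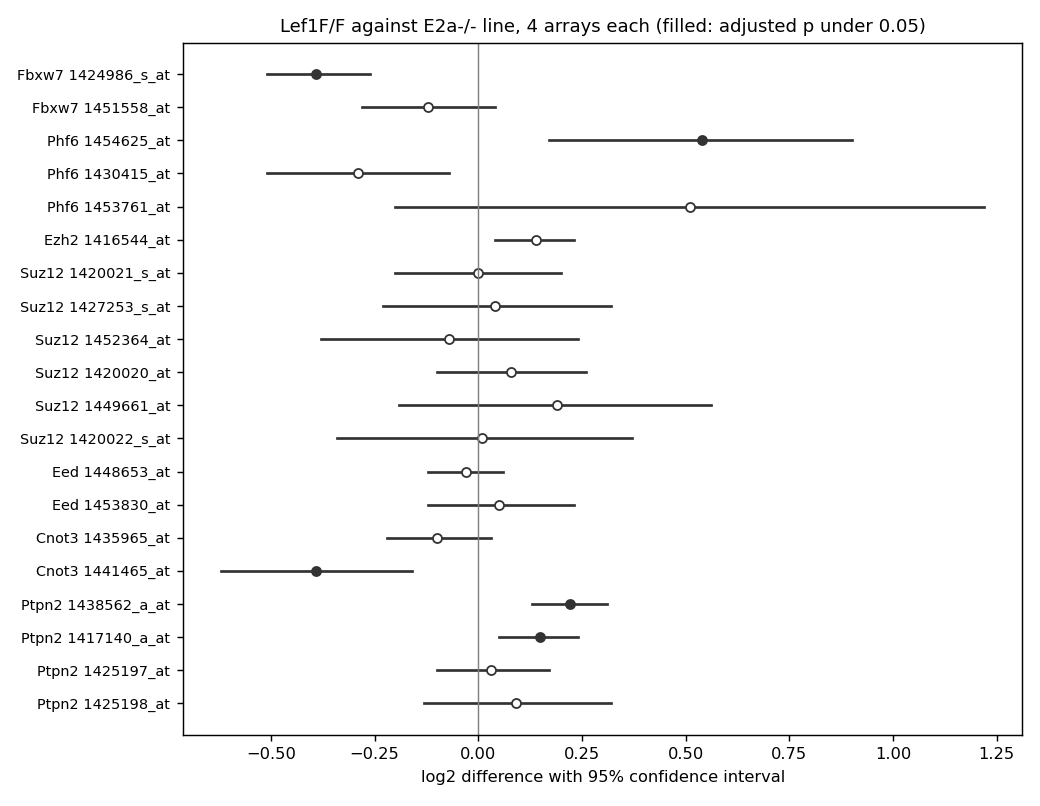
The log2 difference between the Lef1F/F line and the E2a-/- line over both vectors (4 arrays each) for each of the 20 probe sets, with its 95% confidence interval. The 5 filled circles passed an adjusted p of 0.05, with Fbxw7 1424986_s_at and Cnot3 1441465_at to the left of 0 and Phf6 1454625_at and a pair of Ptpn2 probe sets to the right.

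Several of the same genes differed between arrays of 1 group. The dimmest Phf6 probe set, 1453761_at, lay at 92.8, 93.7, 92.0 and 94.0 units in the E2a-/- arrays. In the Lef1F/F line it lay at 85.6 and 88.4 in arrays 1 of both vectors and at 206.2 and 199.7 in arrays 2. Arrays 2 were 2.41-fold higher than arrays 1 with MigR1 and 2.26-fold higher with MigR1-Cre, the widest split among the 20 probe sets. Counting this probe set itself, 18 probe sets, 0.04% of all, split at least as far with both vectors. Its E2a-/- arrays and Lef1F/F arrays 1 lay near the median of all probe sets on each array (88.9 to 91.0). The brightest Phf6 probe set was 1.46- and 1.5-fold higher in arrays 2, whereas 1430415_at was lower there, at 0.841 and 0.79 of arrays 1.

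Suz12 showed the same split in all of its 6 probe sets. The brightest lay at 3495 units in array 1 and 4487 in array 2 with MigR1, and at 3567 and 4260 with MigR1-Cre. The next, 1427253_s_at, lay at 2468 and 3431 units and at 2635 and 3469. In the E2a-/- line those probe sets ran from 3866 to 4061 and from 2802 to 3076 units. Arrays 1 of the Lef1F/F line thus lay below the E2a-/- range, and arrays 2 above it. Over the 6 probe sets the ratio of array 2 to array 1 was between 1.12 and 1.58. The brightest probe sets of Ezh2, Eed and Ptpn2 differed less between these arrays, with ratios between 0.965 and 1.07.

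Counted over the 20 probe sets, 8 differed by at least 0.25 on the log2 scale in the same direction with both vectors in the Lef1F/F line, against 7.28% of all probe sets, and 4 by at least 0.5, against 1.49% of all. In the E2a-/- line the count at 0.25 was 0, where 0.224% of all probe sets reached it. Probe sets of 1 gene share transcripts, and the annotation gives several of the Suz12 probe sets the same source sequence, so these are not independent counts. The cause of the split was not tested. Another PRC2 subunit, the histone chaperone gene Rbbp4, was looked up after its values were seen. Its probe set 1454875_a_at lay at 776.0 and 817.4 units in arrays 1 and at 1907 and 2006 in arrays 2 of the Lef1F/F line, against 855.0 to 1037 in the E2a-/- line. Rbbp4 1454791_a_at split likewise, at 2903 and 3064 units in arrays 1 and 4454 and 4613 in arrays 2. The brightest Rbbp4 probe set lay between 7814 and 8629 in all arrays. Rbbp4 1456260_at was instead lower in the Lef1F/F line, at 288.6 to 376.6 units against 505.9 to 583.5 in the E2a-/- line. Its log2 difference over both vectors was -0.69 ± 0.09 (limma adjusted p = 0.000969).

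**Figure D4:**
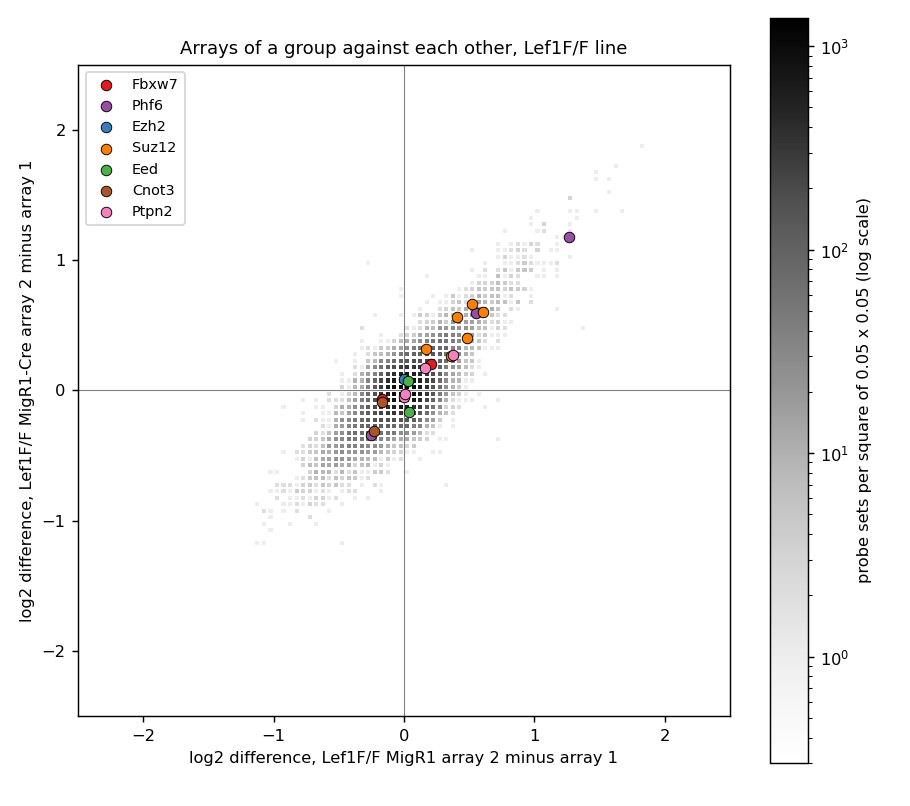
For each probe set, the log2 difference of array 2 minus array 1 in the Lef1F/F MigR1 group (horizontal) and in the Lef1F/F MigR1-Cre group (vertical), with all 45037 probe sets as gray squares shaded by their number and the 20 probe sets of the 7 genes in color. Phf6 1453761_at lies at 1.27 and 1.18, the Suz12 probe sets all lie above 0 on both axes, and Ezh2 lies near 0 on both.

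The line differences were therefore also computed with arrays 1 or arrays 2 of the Lef1F/F line left out. Each Lef1F/F group then has 1 array, so the fits take their spread from the E2a-/- arrays alone. Between the arrays of a group, the median size of the log2 difference over the 20 probe sets was larger in the Lef1F/F line. It was 0.22 (MigR1) and 0.265 (MigR1-Cre) there, against 0.0542 and 0.0818 in the E2a-/- line. The split was chosen after these arrays were seen to differ, so a change between the fits restates it. Fbxw7 1424986_s_at was lower either way, with a log2 difference of -0.33 with arrays 1 alone and -0.45 with arrays 2 alone. The brightest Ptpn2 probe set was higher either way, at 0.24 and 0.21. Some others depended more on which arrays were kept. Phf6 1454625_at was 0.25 with arrays 1 alone and 0.82 with arrays 2 alone. Cnot3 1441465_at was -0.25 with arrays 1 alone and -0.52 with arrays 2 alone. Suz12 1420022_s_at turned its sign, from -0.28 with arrays 1 alone to 0.31 with arrays 2 alone. Phf6 1453761_at went from -0.10 with arrays 1 alone to 1.12 with arrays 2 alone. With arrays 1 alone 5 of the 20 probe sets were called between the lines, against 20.1% of all probe sets, and with arrays 2 alone 12 of the 20 were, against 29.5% of all. In the MigR1 comparison the counts were 1 of 20 with arrays 1 alone, against 11.2% of all probe sets, and 7 of 20 with arrays 2 alone, against 20.4%.

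The genes that work with the 7 were described by the brightest probe set of each gene, for which the background of calls between the lines over both vectors was 25.0%, with 12.1% of genes lower and 12.9% higher in the Lef1F/F line. After Cre, 0 of the 182 genes in the lists that follow were called by limma in either line, with 13 at an unadjusted p under 0.05 in the Lef1F/F line and 3 in the E2a-/- line. Of all genes, 0.286% were called in the Lef1F/F line. The share of all genes at that unadjusted level is not given, so the counts of 13 and 3 are not read as a result. Among 10 further PRC2 subunits, 3 were higher in the Lef1F/F line and 1 was lower. Jarid2, a targeting subunit, went from 501.7 ± 18.1 to 699.7 ± 47.3 units (SD, n = 4), and Mtf2, a Polycomb-like subunit that recruits the complex, from 4815 ± 138.8 to 6648 ± 533.1. Ezh1, the paralog of Ezh2, lay between 171.3 and 201.6 units in all arrays. Of 19 PRC1 subunits 6 were higher and 2 lower, among them Kdm2b at a log2 difference of 0.58 ± 0.10 and Bcor, itself mutated in T-ALL, at -0.39 ± 0.04. Of 10 opponents of Polycomb repression 2 were higher, led by Bap1 at 0.54 ± 0.05, and 1 was lower. Hox genes, the best known PRC2 targets, had a median of 68.9 units over 33 genes, and all 33 had a mean over the 8 arrays under 179.6 units, which is double the median of the table. Hoxd8 was higher in the Lef1F/F line, at 229.3 ± 27.9 against 75.0 ± 5.09 units (SD, n = 4). Hoxa13 was called lower, but no log2 difference among the 33 genes was below -0.24.

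Around FBXW7, 2 of 9 ligase partners and regulators were higher and 2 lower. Cul1, the scaffold of the SCF ligase, was higher by 0.26 ± 0.07 on the log2 scale, and the ring subunit gene Rbx1 was lower by a difference of -0.41 ± 0.09. Rbx1 was dim, however. Its group means were 209.0 (MigR1) and 229.7 (MigR1-Cre) units in the E2a-/- line, against 163.4 and 165.1 in the Lef1F/F line. Of 16 genes that encode FBXW7 substrates, 2 were higher and 4 lower. These are transcript levels, and FBXW7 acts on the proteins. By its brightest probe set Notch1 was higher by 0.36 ± 0.05, from 6169 ± 219.3 to 7930 ± 474.4 units (SD, n = 4). A dimmer Notch1 probe set lay at 933.2 to 1086 in the E2a-/- line and at 757.4 to 869.1 in the Lef1F/F line. It was called in the opposite direction (log2 difference -0.26 ± 0.06, limma adjusted p = 0.0129), so the direction for the gene is not settled. Srebf2, a regulator of sterol synthesis, was lower by a log2 difference of -0.65 ± 0.12. Mycn was the brightest of the substrates and did not pass after Cre in either line. It lay at 12653 and 11713 units with MigR1 and at 6470 and 6640 with MigR1-Cre in the E2a-/- line, and at 11049 and 9317 against 7353 and 5481 in the Lef1F/F line (log2 differences -0.89 ± 0.14 and -0.68 ± 0.14, limma adjusted p = 1 and 0.238). Of 12 other F-box receptors 1 was higher and 3 were lower, including Fbxl12 at -0.49 ± 0.05 and Fbxw4 at -0.46 ± 0.04, against -0.39 ± 0.05 for Fbxw7 itself.

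Around PTPN2, 3 of 17 genes for JAK-STAT components and regulators were higher and 5 were lower in the Lef1F/F line. Il7r, the receptor chain for interleukin 7, was lower by a log2 difference of -1.71 ± 0.09, from 747.1 ± 46.1 to 232.5 ± 47.5 units (SD, n = 4), and Socs1, an inhibitor of JAK kinases, differed by -0.62 ± 0.05. Socs2, another inhibitor of cytokine signals, was higher by 1.13 ± 0.06. Of 16 other CCR4-NOT genes 1 was higher and 3 were lower, including the associated antiproliferative gene Btg2 at -0.52 ± 0.13. Of 16 genes for partners of PHF6, 1 was higher and 4 lower, including the NuRD helicase gene Chd3 at -0.72 ± 0.10 and the deacetylase gene Hdac1 at 0.37 ± 0.05.

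Among 26 other genes known as suppressors in T-ALL, 10 were higher in the Lef1F/F line and 2 lower, with a median log2 difference of 0.12. Those with the largest differences were Cdkn1b, which encodes the cell cycle inhibitor p27, at 0.82 ± 0.12, and Mycbp2, Rb1 and Etv6 at 0.61 ± 0.06, 0.56 ± 0.10 and 0.50 ± 0.06. Those called lower were Bcor, given above, and Ptprc, which encodes the phosphatase CD45, at -0.29 ± 0.05 (limma adjusted p = 0.00242). In contrast to the 7 genes, 5 of these 26 had a mean under 179.6 units. They were Cdkn2a, Cdkn2b, Wt1, Nf1 and Tet2, named after their values were seen. Cdkn2a, the gene most often deleted in T-ALL, lay between 56.0 and 66.8 units in all 8 arrays, and its neighbor Cdkn2b between 63.1 and 69.4. Both were as dim in the E2a-/- line as in the Lef1F/F line, and whether the genes are present was not measured here.

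**Figure D5:**
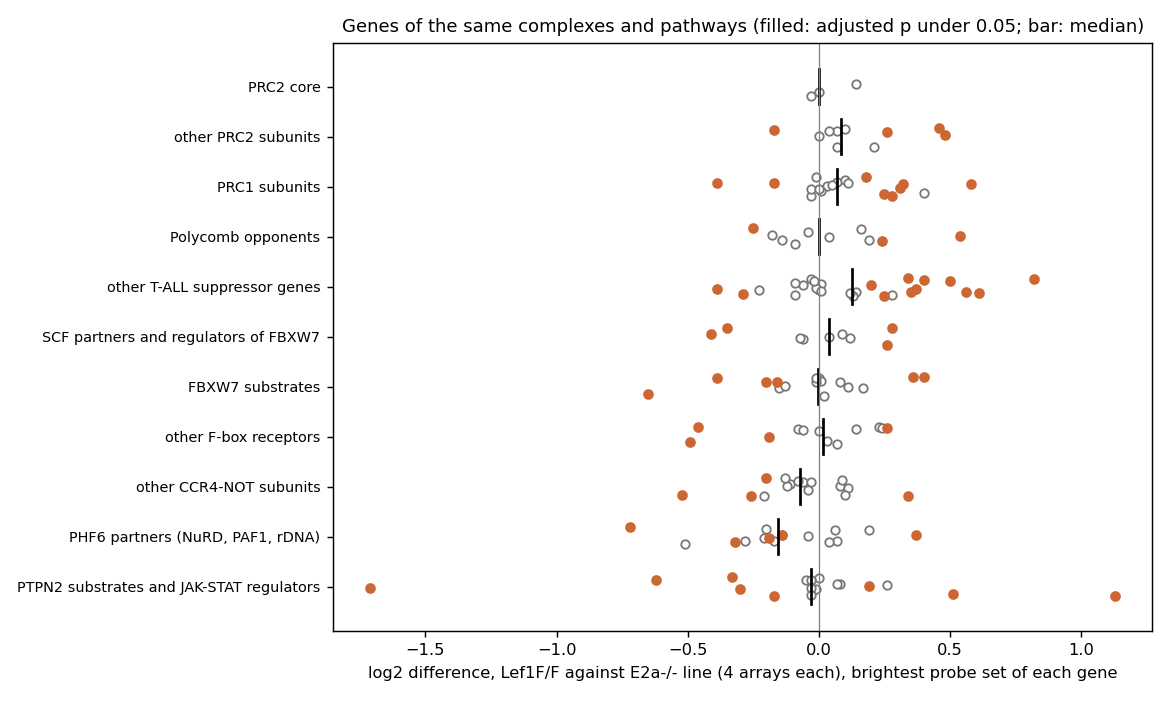
The log2 difference between the Lef1F/F and the E2a-/- line (4 arrays each) for the brightest probe set of each gene, by list, with the PRC2 core on top and the Hox genes not plotted. Filled points passed an adjusted p of 0.05 and bars are list medians. The 3 PRC2 core genes lie between -0.03 and 0.14 with no call, and Il7r at -1.71 and Socs2 at 1.13 are the outermost points plotted.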

How the data were processed

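Total RNA of GFP+ cells was labeled with a 3' in vitro transcription kit and hybridized to Affymetrix mouse expression arrays. The authors normalized the scans with RMA, and the deposited table holds a linear intensity for each probe set and array, between 35.2 and 25588 units. RMA makes the arrays alike in distribution and compresses differences between low intensities, so global shifts in RNA content are not visible.

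Groups came from the titles. A separate retrovirus field of the labels disagreed with them in part and was not used. Of 45037 probe sets, 34945 had 1 gene symbol in the platform annotation, 932 had several and 9160 had none, and only the first kind was used to name genes. Symbols and chromosomes came from the RefSeq annotation of GRCm38.p6. The 7 genes, the gene lists, the fits and the rule for naming genes were chosen with earlier results of these data known. Up to 4 called genes of each list were named by the size of their difference, and others only where their levels bear on a member.

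Log2 intensities of all 8 arrays were fitted with limma 3.58.1 in R 4.3.3, using 4 group means (4 residual and 3.99 prior degrees of freedom). There were 5 contrasts, with two-sided p-values adjusted by Benjamini-Hochberg over 45037 probe sets and a threshold of 0.05. Values after ± are moderated standard errors unless SD is named. Alternatives were a filter at the 40th percentile, trend and robust moderation, only the arrays compared, quantile normalization, an offset of 50 units, array weights, gene means, and leaving out arrays. The study's own comparison in dChip was not used.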

Additional observations from a re-analysis of the deposited data

How the results depend on the processing

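With 2 arrays a group, only large or tight differences can be called, and dim probe sets lie where RMA compresses differences. The calls of Fbxw7 1424986_s_at and of the brightest Ptpn2 probe set over both vectors stood in every alternative by probe set that kept all 8 arrays. The mean over the Ptpn2 probe sets missed the threshold (limma adjusted p = 0.065). In the MigR1 arrays, where 2 of 20 probe sets were called, the count was 1 with trend and robust moderation, 1 with only the arrays compared, 1 with gene means, and 0 to 2 with 1 array left out. Fbxw7 lost its call there without E2a-/- MigR1 array 1 or 2 or without Lef1F/F MigR1 array 2 (adjusted p up to 0.104). Over both vectors, where 5 were called, the count was 3 with trend and robust moderation, 3 of 7 with gene means, and 2 to 6 with 1 array left out. Phf6 1454625_at missed the threshold with trend and robust moderation (adjusted p = 0.051), an offset of 50 units (0.0784), gene means (0.209) and without any 1 of the E2a-/- arrays or of the Lef1F/F arrays 2. Ezh2 passed with a filter on low values (0.0489), repeated quantile normalization (0.0287), an offset (0.0153) and gene means (0.0197).

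Chosen after seeing the data, using the Lef1F/F arrays 1 alone gave 1 member call in the MigR1 comparison (11.2% of all probe sets were called) and 5 over both vectors (20.1%), and arrays 2 alone gave 7 (20.4%) and 12 (29.5%). A replicate block on array order in the Lef1F/F line, where no label says whether order pairs the arrays, gave 0 member calls in both Cre comparisons and in their difference. Its lowest unadjusted p was 0.0237, for Suz12 1420020_at. The standard error of the Cre effect in that line was 0.06 with the block for the brightest Suz12 probe set and 0.09 for that of Phf6, against 0.12 and 0.22 without it.

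For the brightest probe set or mean of each gene, each change of direction was of a value that had not passed. Among the others, Suz12 1420022_s_at differed in opposite directions with arrays 1 and arrays 2 alone (-0.28 and 0.31). With gene means, Suz12 turned to 0.061 after Cre in the Lef1F/F line and to 0.042 between the lines over both vectors, and Eed to 0.029 after Cre in the E2a-/- line and to 0.004 and 0.012 between the lines. With repeated quantile normalization Eed turned to 0.001 after Cre in the E2a-/- line, Ptpn2 to -0.005 in the difference of Cre effects, and Suz12 to 0.009 and 0.011 between the lines. With arrays 1 alone Cnot3 was 0.029 in the MigR1 comparison, and with arrays 2 alone Suz12 was 0.173 there and 0.151 over both vectors. With 1 array left out, the Cre effect in the Lef1F/F line ran from -0.017 to 0.149 for Fbxw7, from -0.225 to 0.362 for Phf6, from -0.023 to 0.07 for Ezh2, from -0.203 to 0.157 for Suz12, from -0.027 to 0.041 for Eed and from -0.12 to 0.054 for Cnot3. In the E2a-/- line it ran from -0.023 to 0.094 for Fbxw7 and from -0.028 to 0.002 for Eed. The difference of Cre effects ran from -0.052 to 0.114 for Fbxw7, from -0.056 to 0.53 for Phf6, from -0.171 to 0.189 for Suz12, from -0.014 to 0.054 for Eed, from -0.167 to 0.008 for Cnot3 and from -0.023 to 0.029 for Ptpn2. The line difference in MigR1 arrays ran from -0.188 to 0.173 for Suz12 and from -0.145 to 0.029 for Cnot3, and that over both vectors from -0.093 to 0.087 for Suz12. The cause was not tested.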

Other observations

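The genes whose brightest probe set followed each member most closely over the 8 arrays are given as a description. The arrays fall into 2 lines and share their line, so the likeness partly restates the line difference. For Fbxw7 they were Ccdc59, Pcdh18 and Nr2f6, with Pearson correlations of 0.992, 0.992 and 0.986. For Phf6 they were Pdk1, Atp2c1 and Arcn1, at 0.995, 0.993 and 0.991.

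By chromosome, the median log2 difference between the lines lay between -0.02 and 0.00 for the genes on the chromosomes of the 7 members. Over all genes 12.1% were called lower in the Lef1F/F line and 12.9% higher. On chromosome 3, which holds Fbxw7, 12.5% of 913 genes were lower in the Lef1F/F line and 10.5% higher. On the X chromosome, which holds Phf6, 9.4% of 617 genes were lower and 12.2% higher. The most uneven was chromosome 11, which holds Suz12, with 17.0% of 1443 genes lower and 9.29% higher.

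Among genes of the other cell types, Col1a2, a collagen gene listed as a stromal marker, was at 4244 ± 107.4 units in the E2a-/- line and at 290.4 ± 26.7 in the Lef1F/F line (SD, n = 4), while Col1a1 and Col3a1 had means of 64.7 and 48.6 units over the 8 arrays. Kdm5d, a Y-linked histone demethylase gene, was at 371.5 ± 12.2 units in the E2a-/- line and at 42.1 ± 1.78 in the Lef1F/F line. Of 2 other Y-linked genes, Eif2s3y was lower in the Lef1F/F line too, by a log2 difference of -0.32 ± 0.05 (limma adjusted p = 0.00398), and Uty lay between 195.1 and 272.5 units in all 8 arrays.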
